A study of Oryza sativa with 27 samples.

Results

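The transcripts of 9 rice loci of early phenylpropanoid and flavonoid synthesis were followed in cultured cells dosed with a herbicide safener. The loci were chosen by a list of identifiers: 1 cinnamate 4-hydroxylase, 5 4-coumarate-CoA ligases, 1 chalcone synthase, 1 chalcone isomerase and 1 naringenin O-methyltransferase. Of the 9, 8 have a row in the table of 46102 loci, and 6 passed the low-count filter that left 26465 loci for testing. The enzyme names come from that list, because the table gives identifiers only. The naringenin O-methyltransferase, LOC_Os12g13800, was not analysed here.

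PolyA RNA was sequenced from 5-day-old suspension cells of the rice cultivar Tsukinohikari. The groups were metcamifen at 5 µM, cyprosulfamide at 5 µM, and the carrier DMSO alone, which both safener solutions also held. Each treatment was sampled at 30, 90 and 240 min, which makes 9 groups of 3 biological replicates, or 27 libraries. Both safeners are acyl sulfonamides; metcamifen carries a methylurea group where cyprosulfamide carries a cyclopropyl amide. A suspension culture of 1 cultivar is a model of undifferentiated cells only, and the cell type could not be checked by marker genes because the identifiers are unnamed.

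Phenylpropanoid synthesis turns phenylalanine into cinnamate, and cinnamate 4-hydroxylase, a cytochrome P450, hydroxylates cinnamate to p-coumarate. The 4-coumarate-CoA ligases then join p-coumarate and related acids to coenzyme A, and the thioesters feed both lignin monomers and flavonoids. Chalcone synthase builds naringenin chalcone from p-coumaroyl-CoA and malonyl-CoA, chalcone isomerase closes its ring to naringenin, and in rice an O-methyltransferase can turn naringenin into the phytoalexin sakuranetin.

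Library totals ranged from 7278921 to 26162571 counts with metcamifen, from 5516373 to 43747251 with cyprosulfamide and from 16716222 to 21620410 with DMSO. Levels are CPM, counts scaled to a library total that was adjusted by the trimmed mean of M values (TMM), and are not divided by transcript length, so they are compared between libraries and not between loci. On the first principal component of log2 CPM, which held 21.03% of the variance, replicate 1 stood apart from replicates 2 and 3 in all 3 treatments, on one side with metcamifen and on the other with cyprosulfamide and DMSO. Metcamifen replicate 1 lay at -44.1 to -21.3 over the 3 times and replicates 2 and 3 at -6.75 to 31.9. Cyprosulfamide replicate 1 lay at 16.8 to 47.0 and replicates 2 and 3 at -18.5 to 12.4. DMSO replicate 1 lay at 23.8 to 44.6 and replicates 2 and 3 at -45.2 to -17.8. What sets these libraries apart was not tested. In bulk RNA, fewer cells that express a locus and less RNA per cell cannot be told apart.

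Cinnamate 4-hydroxylase, LOC_Os05g25640, was higher at 90 min in metcamifen cells than in cells given cyprosulfamide or DMSO. At 90 min it stood at 246, 254 and 237 CPM in the 3 metcamifen libraries, against 104, 137 and 124 CPM with cyprosulfamide and 106, 145 and 140 CPM with DMSO. Every metcamifen library lay above every other library of that time, as was so against DMSO for 12.2% of all loci and against cyprosulfamide for 14.3%. The log2 fold change of metcamifen over DMSO was 0.92 (SE 0.178, 95% interval 0.55 to 1.28; adjusted p = 0.00121, edgeR quasi-likelihood test with Benjamini-Hochberg adjustment, 3 libraries each). It was the only 1 of the 6 tested loci called, at an adjusted p under 0.05, for metcamifen against DMSO at 90 min, when 5.94% of all loci were called and 4.49% were called as higher. Metcamifen over cyprosulfamide gave 1.01 (SE 0.179, interval 0.64 to 1.38; adjusted p = 0.000393) at 90 min, again the only call among the 6 loci, against 6.79% of all loci. Without replicate 1 of metcamifen and of DMSO, the 90 min differences were 0.79 (adjusted p = 0.00162) from DMSO and 1.01 (adjusted p = 2.26e-05) from cyprosulfamide.

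**Figure D1:**
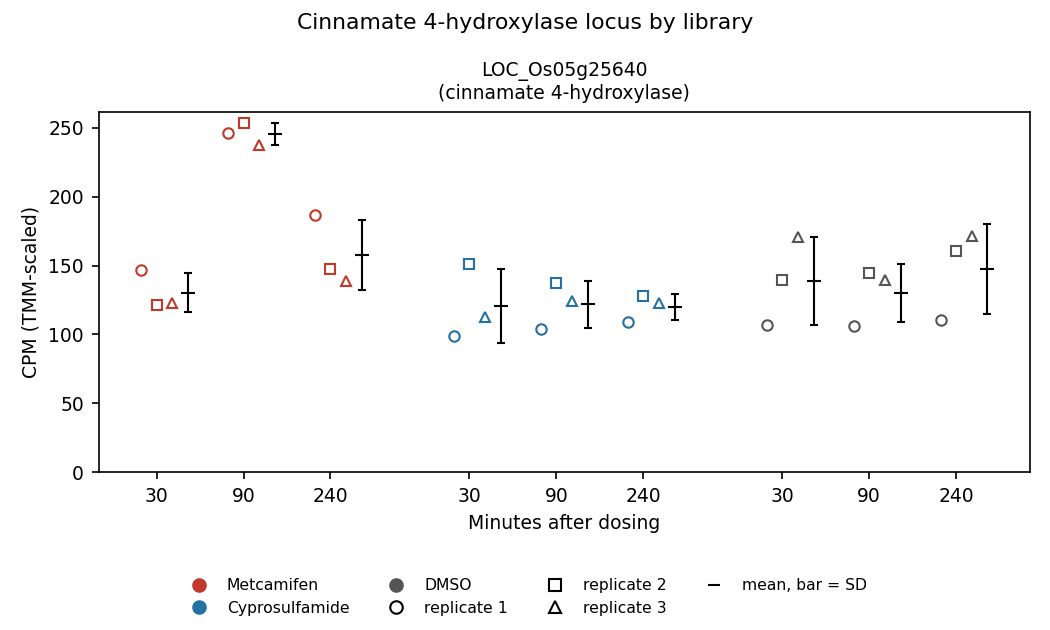
Level of the cinnamate 4-hydroxylase locus LOC_Os05g25640 in CPM, by treatment and minutes after dosing; each symbol is 1 of 27 libraries and the bar is the mean with SD of 3. The 3 metcamifen libraries at 90 min sit at 237 to 254 CPM, above all other libraries, which lie between 98.9 and 187 CPM.

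At 30 min the hydroxylase stood at 147, 122 and 122 CPM with metcamifen, 98.9, 151 and 113 CPM with cyprosulfamide and 107, 140 and 170 CPM with DMSO. At 240 min it stood at 187, 147 and 139 CPM with metcamifen, 109, 128 and 123 CPM with cyprosulfamide and 110, 160 and 171 CPM with DMSO. The metcamifen and DMSO libraries overlapped at both times, with log2 fold changes of -0.10 at 30 min (adjusted p = 0.965) and 0.10 at 240 min (interval -0.27 to 0.47; adjusted p = 0.871). At 240 min all metcamifen libraries lay above all cyprosulfamide libraries, as did those of 11.3% of all loci, but the log2 difference of 0.40 did not pass (interval 0.02 to 0.77; adjusted p = 0.312). An edgeR fit with 1 surrogate variable, added after seeing the data, called the hydroxylase over DMSO at 240 min (0.29, adjusted p = 0.00761, 8.75% of all loci). It did not at 30 min (0.10, adjusted p = 0.795). Over cyprosulfamide that fit called it at 30 min (0.28, adjusted p = 0.0282, 2.33% of all loci) and 240 min (0.35, adjusted p = 0.00176, 6.8%).

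The group means of the hydroxylase, from the highest, were 246 CPM with metcamifen at 90 min, 158 with metcamifen at 240 min, 147, 139 and 130 with DMSO at 240, 30 and 90 min, 130 with metcamifen at 30 min, and 122, 121 and 120 with cyprosulfamide at 90, 30 and 240 min. The highest was 2.05 times the lowest. Only the step between the first and second groups of this order was free of overlap between libraries. In 15.1% of all loci, too, all metcamifen libraries of 240 min lay below all those of 90 min. At the other 7 steps the neighbours overlapped.

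Within metcamifen cultures the hydroxylase rose between 30 and 90 min by 0.92 on the log2 scale (SE 0.179; adjusted p = 0.00161), when 5.41% of all loci were called. It then fell by 0.64 between 90 and 240 min (SE 0.177; adjusted p = 0.0291), against 6.65% of all loci called. The fall lost its call without any 1 of the 3 metcamifen libraries of 90 min and without metcamifen replicate 2 or 3 of 240 min, where adjusted p ranged from 0.0507 to 0.143. The same-numbered metcamifen libraries deviated together over time, and with the number as a block within treatment the fall was -0.65 (adjusted p = 2.72e-06). In that blocked fit the level at 240 min was also above that at 30 min, by 0.28 (SE 0.0809; adjusted p = 0.021), which was not called without the block (0.28; adjusted p = 0.408; 8.29% of all loci called). The blocked fit called 14.7% of all loci between 90 and 240 min and 16.1% between 30 and 240 min.

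In DMSO cultures the hydroxylase changed by -0.09 between 30 and 90 min and by 0.18 between 90 and 240 min, and in cyprosulfamide cultures by 0.01 and -0.02. None of these changes passed the test, which called 0.242% and 0.71% of all loci in DMSO cultures and 0.193% and 0.54% in cyprosulfamide cultures. The difference between metcamifen and DMSO was larger at 90 than at 30 min by 1.01 on the log2 scale (SE 0.251; adjusted p = 0.0346), in a test of the change itself that called 1.69% of all loci. This call was lost without DMSO replicate 2 or 3 of 30 min, DMSO replicate 1 of 90 min, metcamifen replicate 2 or 3 of 30 min, or any 1 metcamifen library of 90 min, with adjusted p from 0.0507 to 0.122. With the replicate block within treatment it was 1.01 (SE 0.114; adjusted p = 2.13e-06), against 5.61% of all loci called. From 90 to 240 min the difference from DMSO changed by -0.82 (SE 0.25; adjusted p = 0.117), where 1.93% of all loci were called. The blocked fit gave -0.81 (SE 0.113; adjusted p = 3.29e-05) and called 6.22% of all loci.

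Among the ligases, which activate p-coumarate, none of the 4 tested loci was called between treatments. LOC_Os02g08100 showed the widest spread within groups among the 6 tested loci. At 30 min it stood at 59.3, 22.2 and 23.7 CPM with metcamifen, 23.7, 51.6 and 32.3 CPM with cyprosulfamide and 26.2, 70.8 and 109 CPM with DMSO. At 90 min the libraries held 55.4, 19.9 and 20.2 CPM with metcamifen, 22.1, 46.8 and 39.5 CPM with cyprosulfamide and 20.9, 74.0 and 89.1 CPM with DMSO. At 240 min they held 46.1, 20.2 and 17.7 CPM with metcamifen, 22.4, 38.1 and 32.8 CPM with cyprosulfamide and 20.4, 95.02 and 104 CPM with DMSO. In each triplet the values are those of replicates 1, 2 and 3, so replicate 1 was the highest metcamifen library and the lowest cyprosulfamide and DMSO library at all 3 times.

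LOC_Os08g34790 had the same arrangement. Its libraries held 44.3, 24.4 and 22.5 CPM with metcamifen at 30 min, 24.4, 43.8 and 30.0 CPM with cyprosulfamide and 23.3, 50.4 and 84.7 CPM with DMSO. At 90 min the values were 42.8, 29.7 and 21.6 CPM with metcamifen, 13.7, 35.2 and 27.7 CPM with cyprosulfamide and 12.4, 35.3 and 43.1 CPM with DMSO. At 240 min they were 37.4, 12.4 and 11.02 CPM with metcamifen, 11.9, 26.04 and 20.7 CPM with cyprosulfamide and 13.1, 46.2 and 62.8 CPM with DMSO. Replicate 1 was again highest with metcamifen and lowest with cyprosulfamide and DMSO.

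**Figure D2:**
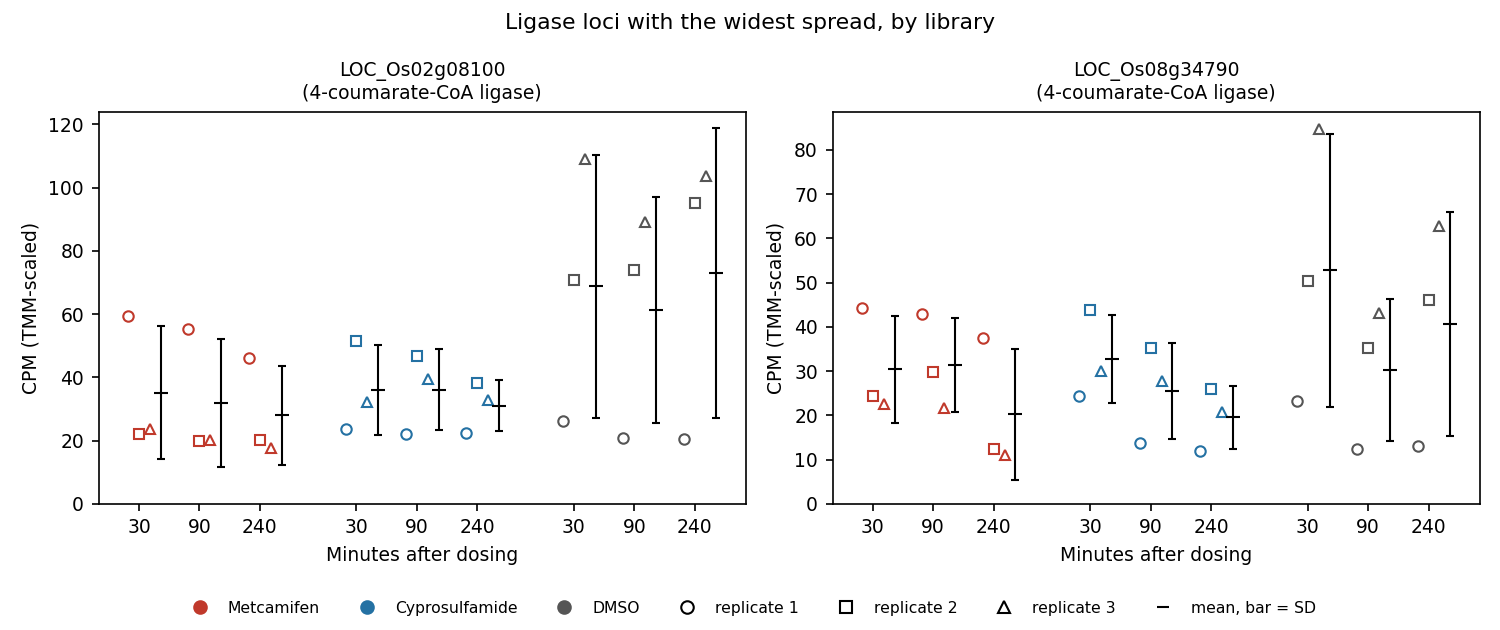
Levels of the ligase loci LOC_Os02g08100 and LOC_Os08g34790 in CPM, by treatment and minutes after dosing; each symbol is a library, its shape the replicate number, and the bar is the mean with SD of 3. Replicate 1 is the highest metcamifen library and the lowest DMSO library at each time for both loci.

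The spread within groups was large for both loci against other loci. The SD of log2 CPM within groups was 0.87 for LOC_Os02g08100, above that of 99.0% of all tested loci, and 0.795 for LOC_Os08g34790, above that of 98.6%. The median over all tested loci was 0.191. Across the 27 libraries LOC_Os02g08100 ranged 6.17-fold and LOC_Os08g34790 ranged 7.69-fold. Their correlations with the first component were -0.86 and -0.94 over the same 27 libraries, from which the component was computed.

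The group means of LOC_Os02g08100 ran from 73.0 ± 45.7 CPM (SD, n = 3) with DMSO at 240 min to 28.0 ± 15.7 CPM with metcamifen at 240 min, a ratio of 2.61. Those of LOC_Os08g34790 ran from 52.8 ± 30.8 CPM with DMSO at 30 min to 19.6 ± 7.15 CPM with cyprosulfamide at 240 min, a ratio of 2.70. For both loci all 8 neighbouring pairs in the order of means overlapped. Metcamifen over DMSO gave LOC_Os02g08100 log2 fold changes of -1.03 (interval -2.29 to 0.23), -0.96 (-2.21 to 0.30) and -1.36 (-2.61 to -0.10) at 30, 90 and 240 min, with adjusted p of 0.78, 0.552 and 0.277. The same comparison gave LOC_Os08g34790 -0.84 (-1.98 to 0.30), 0.05 (-1.09 to 1.18) and -0.97 (-2.11 to 0.18), with adjusted p of 0.807, 0.995 and 0.45. The intervals of LOC_Os02g08100 reach past 4-fold lower at each time.

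Without replicate 1 of metcamifen and of DMSO, LOC_Os02g08100 was lower in metcamifen than in DMSO cells by log2 fold changes of -1.97, -2.02 and -2.38 at 30, 90 and 240 min (adjusted p = 0.000446, 0.000212 and 5.76e-05). LOC_Os08g34790 gave -1.53 (adjusted p = 0.00818), -0.63 (adjusted p = 0.403) and -2.20 (adjusted p = 0.000492). That fit called 7.02%, 7.05% and 11.8% of all loci at these times. The 6 libraries left out were chosen after their values were seen, on a component that moves with these ligases and in opposite directions in the 2 treatments, so the choice itself widens the difference. These calls are therefore not support for a difference between metcamifen and DMSO.

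The replicate numbers paired the 3 times within metcamifen and within DMSO. In the fit with that block LOC_Os08g34790 fell between 30 and 90 min in DMSO cultures by 0.80 on the log2 scale (SE 0.148; adjusted p = 0.00392), where 1.67% of all loci were called. In metcamifen cultures it fell between 90 and 240 min by 0.73 (SE 0.159; adjusted p = 0.00233), and stood lower at 240 than at 30 min by a log2 change of -0.68 (SE 0.16; adjusted p = 0.00443). Its metcamifen effect, the log2 difference from DMSO, moved by 0.86 from 30 to 90 min (SE 0.212; adjusted p = 0.015) and by -1.10 from 90 to 240 min (SE 0.218; adjusted p = 0.00211). In these metcamifen comparisons the blocked fit called 14.7%, 16.1%, 5.61% and 6.22% of all loci, in that order. Without the block the 5 adjusted p of LOC_Os08g34790 were between 0.659 and 1 and none was called. LOC_Os02g08100 had no call over time in either fit; its blocked metcamifen effect changed with adjusted p of 0.973 from 30 to 90 min and 0.226 from 90 to 240 min.

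**Figure D3:**
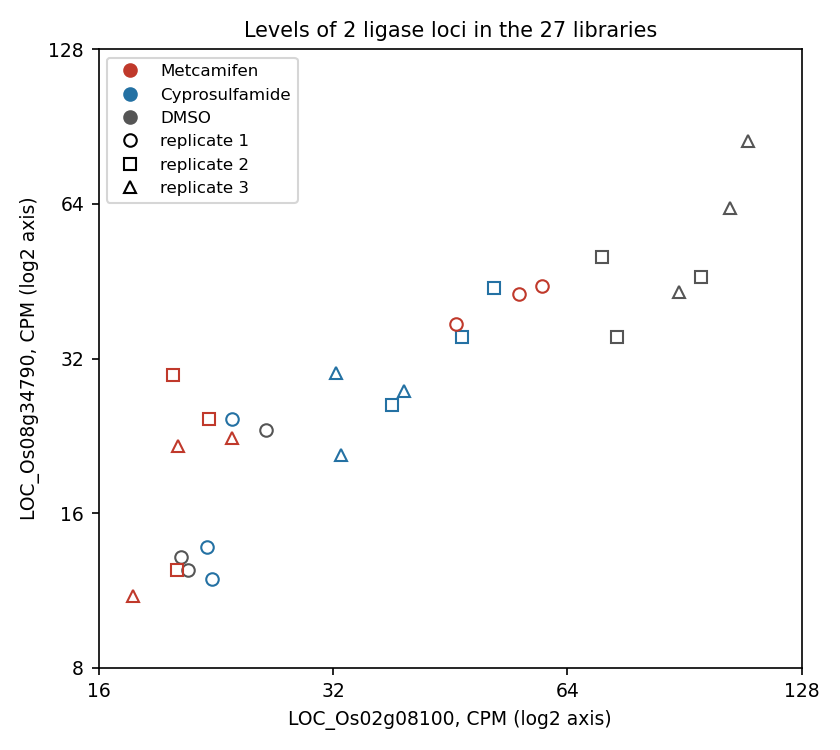
LOC_Os08g34790 against LOC_Os02g08100 in CPM, both on log2 axes; each of the 27 points is a library, coloured by treatment and shaped by replicate number. The loci rise together over the libraries (r = 0.89), with DMSO replicates 2 and 3 at the upper right and DMSO replicate 1 at the lower left.

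LOC_Os06g44620, another ligase, varied less. It stood at 28.9, 28.7 and 28.5 CPM with metcamifen at 30 min, 24.5, 34.9 and 28.2 CPM with cyprosulfamide and 26.7, 34.4 and 36.6 CPM with DMSO. At 90 min it held 36.9, 28.6 and 28.6 CPM with metcamifen, 23.8, 34.9 and 35.3 CPM with cyprosulfamide and 27.8, 37.7 and 30.6 CPM with DMSO. At 240 min it held 36.1, 25.3 and 24.8 CPM with metcamifen, 24.1, 32.2 and 34.5 CPM with cyprosulfamide and 28.5, 45.6 and 42.1 CPM with DMSO. Replicate 1 was again the highest metcamifen library and the lowest cyprosulfamide and DMSO library at each time. With metcamifen at 30 min it was highest by little. The correlation of LOC_Os06g44620 with the first component was -0.79. Its SD of log2 CPM within groups, 0.262, was above that of 66.0% of all tested loci and 92.3% of loci of similar level. Group means of this locus differed by at most 1.35-fold, and all 8 neighbours in their order overlapped. Metcamifen over DMSO gave log2 fold changes of -0.18, -0.03 and -0.42 at 30, 90 and 240 min, the last with an interval of -0.82 to -0.02 and an adjusted p of 0.295. Without replicate 1 of metcamifen and of DMSO the 240 min value was -0.80 (adjusted p = 0.00472), with the same limit on that choice of libraries.

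The fourth tested ligase, LOC_Os08g14760, rested on 1374 counts over all libraries. It held 2.40, 2.41 and 2.88 CPM with metcamifen at 30 min, 2.42, 3.76 and 2.98 CPM with cyprosulfamide and 2.97, 3.30 and 3.01 CPM with DMSO. All metcamifen libraries lay below all DMSO libraries at 30 min, as did those of 5.35% of all loci, with a log2 fold change of -0.26 (adjusted p = 0.911). At 90 min it held 2.91, 2.61 and 2.42 CPM with metcamifen, 3.17, 2.81 and 4.92 CPM with cyprosulfamide and 2.47, 3.00 and 1.67 CPM with DMSO. At 240 min it held 2.57, 1.42 and 1.13 CPM with metcamifen, 2.48, 2.21 and 3.56 CPM with cyprosulfamide and 2.93, 4.15 and 2.13 CPM with DMSO. Replicates 2 and 3 of metcamifen lay below every other library of that time, while replicate 1 overlapped both other groups. The log2 fold change of metcamifen over DMSO at 240 min was -0.79 (interval -1.39 to -0.20, adjusted p = 0.143). Without metcamifen replicate 1 of 240 min it was -1.23 (adjusted p = 0.0293), the only 1 called of 6 fits that each left out 1 library. Over those 6 fits it ran from -1.23 to -0.52, with adjusted p from 0.0293 to 0.515. Replicate 1 was the highest metcamifen library, so leaving it out itself widens the difference. Replicates 2 and 3 held 30 and 11 counts.

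LOC_Os02g46970, the fifth ligase, did not pass the low-count filter. It had 9 counts in the 9 metcamifen libraries, 8 in the 9 cyprosulfamide libraries and 11 in the 9 DMSO libraries, with at most 3 in any library and none in 12 of 27. Differences between treatments were not detectable at this depth.

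The 4-coumarate-CoA ligases were also compared as shares of their summed counts, which held 344 to 5631 counts per library. The shares are of counts and so also reflect transcript lengths. LOC_Os02g08100 took 34.4 ± 8.35%, 30.8 ± 8.18% and 34.7 ± 2.75% at 30, 90 and 240 min with metcamifen, 34.9 ± 3.44%, 37.0 ± 1.96% and 37.0 ± 1.49% with cyprosulfamide and 41.5 ± 7.33%, 45.4 ± 11.2% and 43.4 ± 10.4% with DMSO (SD, n = 3). Its means were lower with both safeners than with DMSO at each time, by amounts of the order of the SD. Replicate 1 had the opposite order between metcamifen and DMSO, with 43.9%, 40.1% and 37.7% at the 3 times with metcamifen and 33.1%, 32.8% and 31.4% with DMSO. LOC_Os06g44620 took 31.7 ± 8.9%, 33.8 ± 6.43% and 39.2 ± 8.44% with metcamifen, 29.6 ± 3.3%, 33.3 ± 4.42% and 36.6 ± 3.55% with cyprosulfamide and 23.7 ± 9.19%, 29.2 ± 13.1% and 29.2 ± 12.8% with DMSO. LOC_Os08g34790 took 31.0 ± 1.94%, 32.4 ± 3.8% and 23.9 ± 5.83% with metcamifen, 32.5 ± 0.279%, 25.7 ± 3.73% and 22.8 ± 3.49% with cyprosulfamide and 32.4 ± 3.52%, 23.1 ± 3.38% and 24.7 ± 4.83% with DMSO. Its mean share was lower at 240 than at 30 min in all 3 treatments; at 90 min it was still at its 30 min level with metcamifen and already lower with cyprosulfamide and DMSO. LOC_Os08g14760 took between 2.19% and 3.99% in group means. The shares were not tested.

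Of the flavonoid enzymes, chalcone isomerase LOC_Os03g60509 was not called in any comparison; it rested on 1128 counts over all libraries. At 30 min it held 1.27, 2.30 and 3.35 CPM with metcamifen, 1.92, 2.17 and 2.21 CPM with cyprosulfamide and 2.97, 2.22 and 1.89 CPM with DMSO. At 90 min it held 1.89, 2.91 and 1.93 CPM with metcamifen, 2.47, 1.76 and 2.46 CPM with cyprosulfamide and 2.25, 2.28 and 1.56 CPM with DMSO. At 240 min it held 2.19, 2.50 and 1.75 CPM with metcamifen, 3.90, 2.21 and 3.28 CPM with cyprosulfamide and 1.74, 3.47 and 2.19 CPM with DMSO. The treatments overlapped at each time. Within cyprosulfamide all libraries of 240 min lay above all of 30 min, as did those of 8.7% of all loci, with a log2 change of 0.55 that did not pass (adjusted p = 0.34). The highest mean, with cyprosulfamide at 240 min, was 1.54 times the lowest, with DMSO at 90 min. Metcamifen over DMSO gave log2 fold changes of 0.05, 0.13 and -0.17 at 30, 90 and 240 min, and cyprosulfamide over DMSO gave -0.17, 0.13 and 0.32.

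Chalcone synthase, LOC_Os11g32650, did not pass the low-count filter. It had 6 counts in the metcamifen libraries, 3 in the cyprosulfamide libraries and 3 in the DMSO libraries, and was at 0 in 5, 6 and 6 of the 9 libraries of each. No library held more than 3 of its counts. No difference was detectable at this depth, and it was the only chalcone synthase locus listed.

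**Figure D4:**
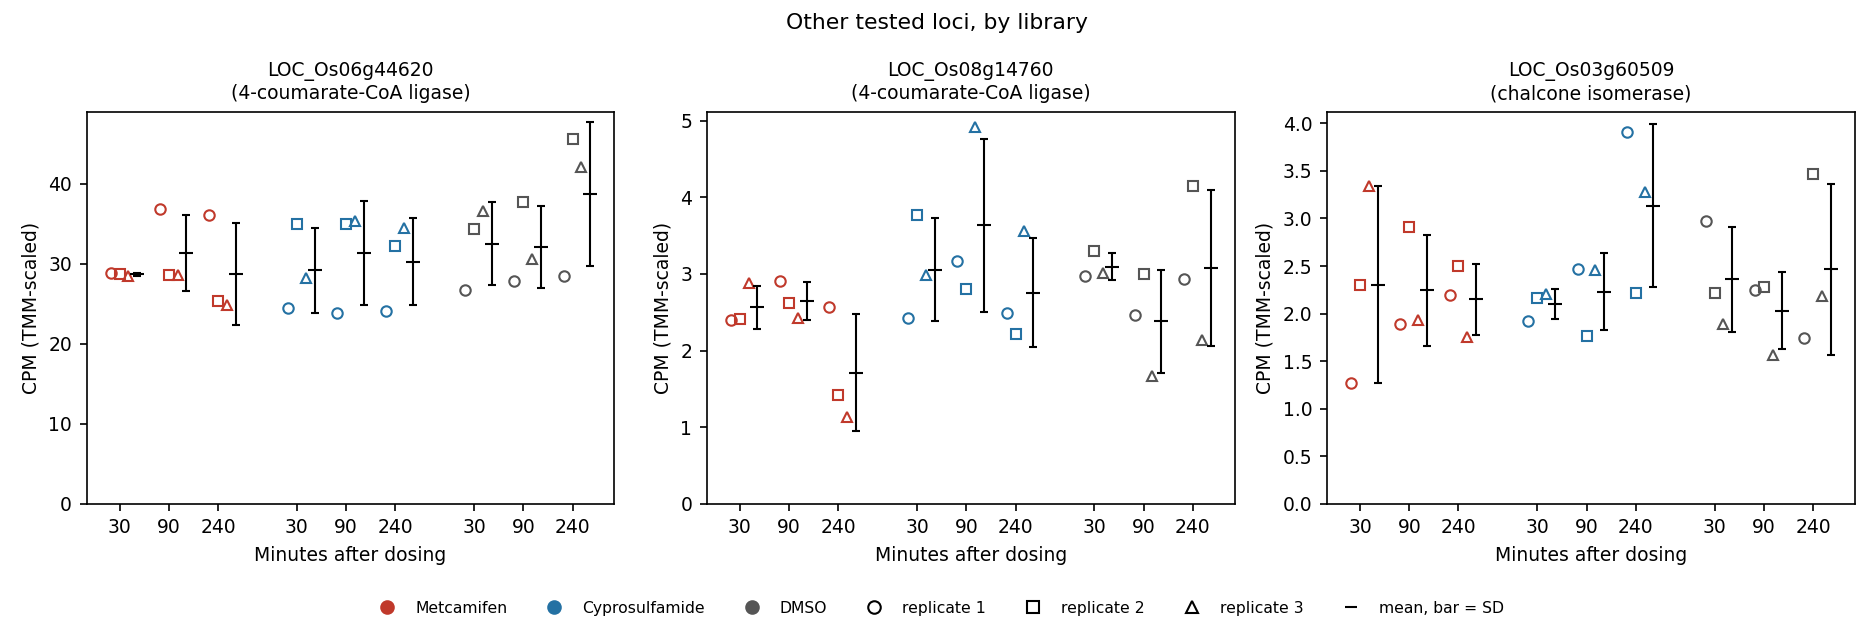
Levels of the ligases LOC_Os06g44620 and LOC_Os08g14760 and of chalcone isomerase LOC_Os03g60509 in CPM, by treatment and minutes after dosing; symbols are libraries and bars are the mean with SD of 3. At 240 min LOC_Os08g14760 is at 1.42 and 1.13 CPM in metcamifen replicates 2 and 3, below all cyprosulfamide and DMSO libraries of that time.

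Over the 6 tested loci, metcamifen against DMSO gave 0 calls at 30 min and 0 at 240 min by edgeR's quasi-likelihood test, where 1.35% and 4.65% of all loci were called; DESeq2 also called 0 at both times. At an unadjusted p under 0.05 the 6 loci gave 0 at 30 min and 3 at 240 min, all 3 of them ligases with lower levels, while 7.33% and 15% of all loci passed that threshold at these times. At 30, 90 and 240 min the 6 loci had median log2 fold changes of -0.22, 0.09 and -0.61, and all tested loci 0.00, -0.01 and -0.01. The mean absolute log2 change over all loci was 0.22, 0.26 and 0.24. LOC_Os02g08100, LOC_Os06g44620 and LOC_Os08g34790 deviated together within groups (r 0.83 to 0.96), so the 6 loci are not separate measures. The medians were not tested. The 3 ligases with an unadjusted p under 0.05 at 240 min are LOC_Os02g08100, LOC_Os06g44620 and LOC_Os08g14760. Their adjusted p in edgeR were 0.277, 0.295 and 0.143, so none was called.

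Cyprosulfamide against DMSO gave 0 calls among the 6 loci at each of the 3 times, by edgeR and by DESeq2, and 0 at an unadjusted p under 0.05. Over all loci edgeR called 0.00378% at 30 min and 0% at 90 and 240 min, and 9.63%, 3.09% and 6.31% passed the unadjusted threshold. The median log2 fold changes of the 6 loci were -0.19, -0.07 and -0.32 at 30, 90 and 240 min, against -0.02, 0.00 and 0.00 over all loci. The mean absolute log2 change over all loci was 0.20, 0.16 and 0.20, and the medians of the 6 loci were not tested. For the hydroxylase the log2 fold changes were -0.20 (interval -0.56 to 0.17), -0.10 (-0.47 to 0.27) and -0.29 (-0.66 to 0.08). LOC_Os02g08100 gave -0.93, -0.77 and -1.21 and LOC_Os08g34790 gave -0.68, -0.25 and -1.02, none called. Both safeners were set against the same DMSO libraries, so these values and those of metcamifen share the deviations of those libraries.

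**Figure D5:**
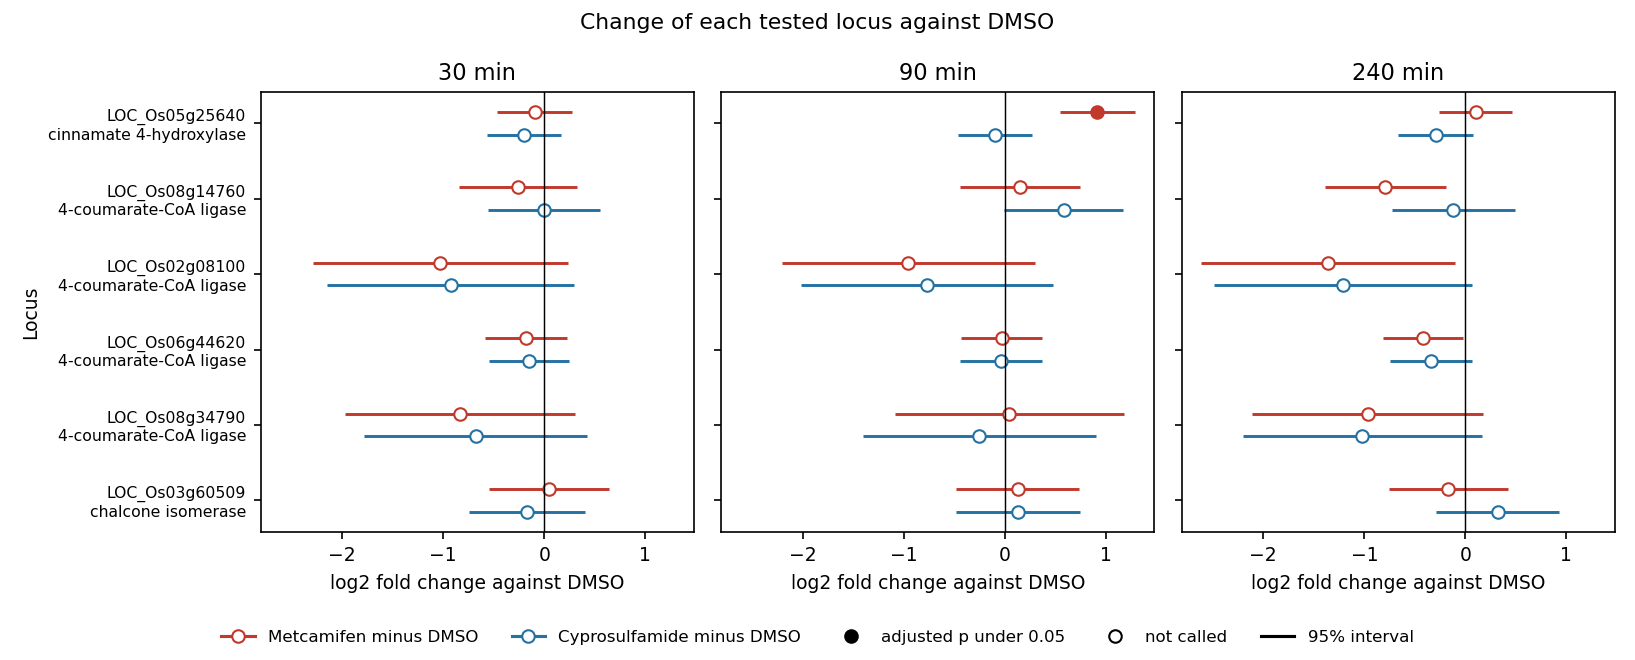
Log2 fold change against DMSO of the 6 tested loci at 30, 90 and 240 min, metcamifen and cyprosulfamide in separate colours. Lines are 95% intervals from the fit to all 27 libraries, 3 per group. Filled points have an adjusted p under 0.05. The hydroxylase with metcamifen at 90 min, at 0.92, is the only filled point, and LOC_Os02g08100 and LOC_Os08g34790 have the widest intervals.

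Set directly against each other at the same dose, the 2 safeners differed at an adjusted p under 0.05 in the hydroxylase at 90 min and in no other of the 6 tested loci. Metcamifen against cyprosulfamide gave 0 calls at 30 min and 0 at 240 min by edgeR and by DESeq2, where edgeR called 1.42% and 3.94% of all loci. At an unadjusted p under 0.05, 0 of the 6 passed at 30 min and 2 at 240 min, against 9.48% and 13.8% of all loci. The log2 differences of LOC_Os02g08100 were -0.10 (interval -1.36 to 1.15), -0.18 (-1.45 to 1.08) and -0.15 (-1.45 to 1.15), and the width of these intervals does not show that the safeners act alike on it. Without the 9 libraries of replicate 1, a choice made after their values were seen, LOC_Os02g08100 gave -0.88, -1.11 and -0.88 (adjusted p = 0.0216, 0.0026 and 0.0322), in a fit that called 2.79%, 5.78% and 3.19% of all loci. As replicate 1 lies on opposite sides in the 2 safeners, this choice too widens the difference. LOC_Os06g44620 gave -0.03, 0.01 and -0.08, LOC_Os08g34790 gave -0.16, 0.30 and 0.05, and LOC_Os08g14760 gave -0.26, -0.43 and -0.67, the last with an unadjusted p of 0.0436 and an adjusted p of 0.338 in edgeR.

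Likeness between loci was described by Pearson's r of log2 CPM over the 27 libraries, which share libraries and the first component. LOC_Os02g08100 and LOC_Os08g34790 had r = 0.89, LOC_Os02g08100 and LOC_Os06g44620 0.82, and LOC_Os06g44620 and LOC_Os08g34790 0.76. The remaining tested ligase, LOC_Os08g14760, had r of 0.27 to LOC_Os02g08100, 0.46 to LOC_Os06g44620 and 0.33 to LOC_Os08g34790. The hydroxylase had r of 0.30 to LOC_Os02g08100 and 0.46 to LOC_Os08g34790, and without the libraries of replicate 1 these were -0.03 and 0.18. Within groups, as deviations from the group means, its r was 0.90 and 0.93 to these 2 ligases, and over the 9 group means -0.26 and 0.09. The hydroxylase thus shared the differences between replicates with these ligases, while its group means were arranged differently. Its correlation with the first component was -0.66. The SD of its log2 CPM within groups, 0.24, was above that of 61.9% of all tested loci and 94.0% of loci of similar level. Chalcone isomerase had r between -0.26 and 0.35 to the other loci.

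Among 23108 loci with a mean of at least 1 CPM, the one most like the hydroxylase was LOC_Os07g09420 (r = 0.95 over 27 libraries). It averaged 98.9, 290.3 and 101 CPM at 30, 90 and 240 min with metcamifen, 93.3, 71.6 and 75.0 CPM with cyprosulfamide and 111, 85.3 and 99.3 CPM with DMSO, so its highest group mean was also that of metcamifen at 90 min. The most like loci of the ligases were LOC_Os09g29660 for LOC_Os02g08100 (r = 0.98), LOC_Os04g57200 for LOC_Os08g34790 (r = 0.98), LOC_Os01g58240 for LOC_Os06g44620 (r = 0.91) and LOC_Os06g48240 for LOC_Os08g14760 (r = 0.83). For chalcone isomerase it was LOC_Os03g47270 (r = 0.71).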

How the data were processed

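PolyA RNA from 27 libraries in 9 groups was analysed from 1 table of whole-number read counts per locus, deposited by the authors without normalization. GSNAP and edgeR were used upstream, per the submitters' processing notes. Any genome build, annotation, strand setting or rule for multiply matching reads is not given in the sources used here, so counts of near-identical, overlapping or antisense loci, ligase copies included, are uncertain. None of the identifiers matched the RefSeq table at hand (39387 rows, assembly ASM3414082v1), so no sequences or coordinates are given, and no wider list of pathway genes could be built.

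Loci were filtered with filterByExpr (minimum count 10, minimum total 15), scaled by TMM and tested with edgeR 4.0.16 in R 4.3.3 (glmQLFit, glmQLFTest) on 9 group means with 18 residual degrees of freedom. P-values were two-sided and adjusted by Benjamini-Hochberg within each of 24 contrasts over all 26465 loci; adjusted p under 0.05 is a call. Standard errors were the absolute log2 fold change over the root of F. Log2 CPM used a prior count of 2. The procedure was also run on simulated counts drawn independently for each library. Those counts held no shared deviations by replicate number, so that run does not bear on results that turn on replicate 1.

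The listed loci, and every list and test, were chosen with earlier results of these data known. Loci named outside the list are the most like each tested locus by r. Replicate numbers paired times within metcamifen (r of same-numbered deviations 0.246 to 0.738) and within DMSO (0.354 to 0.824). Within cyprosulfamide they paired 90 with 240 min (0.201 to 0.548) but neither with 30 min (-0.0791 to 0.411). At the minimum r of 0.1 they paired no treatments at one time. Same-numbered deviations were opposed between metcamifen and DMSO (-0.837 to -0.292). They ran from 0.0444 to 0.586 between cyprosulfamide and DMSO and from -0.54 to 0.0993 between metcamifen and cyprosulfamide. Comparisons between treatments took libraries as independent, which these values do not show. Alternatives were RLE scaling, no filter, DESeq2 1.42.0, only the compared libraries, replicate blocks, thinning to the smallest library and leaving out each library. Fits without replicate 1 of metcamifen and DMSO, without replicate 1 of all 3 treatments and with 1 surrogate variable were added after seeing the data.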

Additional observations from a re-analysis of the deposited data

Results flagged for a closer look

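The difference of cinnamate 4-hydroxylase LOC_Os05g25640 between metcamifen and DMSO was larger at 90 than at 30 min. The same contrast thus gave different effects at 2 times, by a test of the change itself: 1.01 on the log2 scale (edgeR quasi-likelihood test, adjusted p = 0.0346). All 3 metcamifen libraries lay above all 3 DMSO libraries at 90 min, and they overlapped at 30 min. The call was lost when any of 8 single libraries was left out, and kept when any of the other 4 was.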

How the results depend on the processing

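The higher hydroxylase level with metcamifen at 90 min was called in 15 of 15 alternatives against DMSO (log2 fold change 0.79 to 1.01) and in 15 of 15 against cyprosulfamide (0.91 to 1.11). Of 2466 values of the 6 loci under alternatives, 47 became calls, 14 lost a call and 2 reversed. The counts of loci called, out of 6, changed as follows. Without replicate 1 of metcamifen and DMSO, metcamifen against DMSO gave 2, 2 and 4 calls at 30, 90 and 240 min, cyprosulfamide against DMSO 1 at 30 and 2 at 240 min, and the metcamifen effect from 90 to 240 min 1. The shares of all loci called in this fit were 7.02%, 7.05%, 11.8%, 1.78%, 4.7% and 2.21%, in that order. Without all 9 libraries of replicate 1 these counts were 2, 2, 4, 1, 2 and 2, against 8.05%, 7.78%, 12.6%, 1.23%, 2.88% and 3.01% of all loci. Metcamifen against cyprosulfamide then gave 1, 2 and 1 at 30, 90 and 240 min (2.79%, 5.78% and 3.19% of all loci). Metcamifen cultures gave 2 from 90 to 240 min (6.49% of all loci) and 1 from 30 to 240 min (7.06%). With 1 surrogate variable there were 2 and 1 for metcamifen against DMSO at 90 and 240 min, 1 for metcamifen against cyprosulfamide at 30 min and 1 at 240 min, 1 for the metcamifen effect from 90 to 240 min, and 1, 2 and 1 between 30 and 240 min in metcamifen, cyprosulfamide and DMSO cultures. The shares of all loci were 10%, 8.75%, 2.33%, 6.8%, 4.47%, 15.4%, 5.23% and 6.02%, in that order. With this variable, the calls against DMSO at 240 min and against cyprosulfamide at 30 and 240 min were of the hydroxylase. That variable also reversed LOC_Os05g25640 (0.27) and LOC_Os02g08100 (0.75) between 30 and 240 min in cyprosulfamide cultures, which were -0.01 and -0.20; the cause was not tested. The replicate block within treatment gave 2 calls for the metcamifen effect from 30 to 90 min (5.61% of all loci) and 2 from 90 to 240 min (6.22%). In metcamifen cultures it gave 2 from 90 to 240 min (14.7%) and 2 from 30 to 240 min (16.1%). In DMSO cultures it gave 1 from 30 to 90 min (1.67%). In cyprosulfamide cultures it gave 1 from 30 to 240 min, LOC_Os08g34790 (-0.76, with 8.68% of all loci called), where the numbers did not pair the libraries. The replicate number as a block over all 27 libraries, which crosses treatments it did not pair, changed no call. No filter and DESeq2 each gave 1 call for the metcamifen effect from 90 to 240 min, and thinning gave 0 in metcamifen cultures from 90 to 240 min. Leaving out single libraries moved the count between 0 and 1 for metcamifen against DMSO at 240 min, for the metcamifen effect from 30 to 90 and from 90 to 240 min, and for metcamifen cultures from 90 to 240 min. Shares of all loci are not given for the fits without the filter, by DESeq2, after thinning or without single libraries. Whether these gains and losses of calls follow a shift over all loci was not tested. In the main fit p-values rest on the spread between replicates pooled over the 9 groups of 3 libraries, and not on the compared groups alone. Depth left LOC_Os02g46970 and LOC_Os11g32650 untested.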
